A study of Mus musculus with 12 samples.

Results

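The MHC class I presentation genes were a set of 9 named genes: the heavy chain genes H2-K1, H2-D1 and H2-T23, the light chain gene B2m, the transporter genes Tap1 and Tap2, the loading gene Tapbp, the transactivator gene Nlrc5 and the trimming enzyme gene Erap1. They were taken by name from the 56748 genes counted in the series, and all 9 passed the filter on low counts, with between 1171 and 57878 reads for each gene in each library. They were measured by bulk RNA-seq in 12 libraries of murine donor cells, 6 BCR::ABL1− and 6 BCR::ABL1+. The donor bone marrow (BM) came from SCLtTA/BCR-ABL double transgenic mice, in which the tetracycline transactivator is driven by SCL in haemopoietic stem and progenitor cells and human BCR::ABL1 is silent while tetracycline (TET) is given. CD45.2+ donor cells, thawed from a pool made from many transgenic mice of both sexes, were given to CD45.1 B6.SJL recipients aged 8 to 12 weeks that had received irradiation at 4.25 Gy on 2 occasions, 3 h apart. All recipients had TET for 2 weeks after transplant. TET was then kept in the BCR::ABL1− group (labelled CTRL, n = 6) or withdrawn for 2 weeks in the BCR::ABL1+ group (labelled CML 2wk, n = 6), and donor CD45.2+ Lin−Sca+Kit+ (LSK) cells, which include the stem cells and early progenitors, were isolated by sorting. Both groups thus carried both transgenes and differed in TET and in BCR::ABL1 expression, and the CTRL samples are labelled male and the CML 2wk samples female, so that TET and labelled sex cannot be told apart from BCR::ABL1.

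MHC class I molecules show fragments of a cell's own proteins on its surface, where CD8+ T cells read them and NK cells sense their presence. Proteasomes cut proteins into peptides, the TAP transporter (a pair of TAP1 and TAP2) carries these into the endoplasmic reticulum, ERAP1 trims them, and tapasin (Tapbp), calreticulin and ERp57 help to fit them into a heavy chain bound to β2-microglobulin (B2m). NLRC5 is drawn to class I gene promoters by the RFX complex and CREB and NF-Y factors, and interferon acts on the same genes through IRF1.

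Libraries of BCR::ABL1− cells held 22804754 to 41832868 counts on genes, and those of BCR::ABL1+ cells 16150817 to 25070105. Levels below are CPM, read counts scaled by TMM to a common library size, which is meant to adjust for differences in depth and composition. Values depend on the scaling: the median log2 fold change of all genes tested was 0.07 with TMM and 0.14 with upper-quartile factors. Of 18438 genes tested, 59.5% passed an adjusted p of 0.05 by edgeR (quasi-likelihood F test, Benjamini-Hochberg adjusted), 30.6% higher and 29% lower in BCR::ABL1+, so a call alone is common in these data. CPM values of the groups did not overlap for 17% of genes in the higher direction and 20.6% in the lower direction. Libraries varied more in BCR::ABL1+ (biological coefficient of variation 32.6%) than in BCR::ABL1− (10.8%). Of 8 LSK markers, 6 were lower and 1 (Cd48) was higher in BCR::ABL1+, and the summed LSK marker level was 2039 to 2330 CPM in BCR::ABL1− against 1266 to 1689 CPM in BCR::ABL1+. Kit, which was sorted on, was at a median of 745 CPM and 418 CPM, respectively. Ly6a, which encodes the Sca marker that was also sorted on, was at a median of 35.7 CPM and 39.9 CPM and was not called.

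Some lists of markers of other cells also differed between the groups, where 30.6% of all genes were called higher and 29% lower. Markers of dendritic cells, which present antigen to T cells, summed to 47.5 to 88.7 CPM in BCR::ABL1−, to 11.9 to 27.5 CPM in replicates 1 to 5 of BCR::ABL1+, and reached 63.5 CPM in its replicate 6, and 6 of 7 were lower in BCR::ABL1+ by the test. B cell markers (2 of 5 lower) summed to 27.3 to 85.4 CPM and 25.7 to 59.2 CPM, and T cell markers (2 of 4 tested lower) to 4.79 to 7.74 CPM and 0.638 to 4.59 CPM. NK cell markers (2 of 4 tested higher, 1 lower) summed to 70.8 to 94.7 CPM and 86.3 to 188.6 CPM, nearly all of it from Nkg7, and the 4 others to 2.15 to 5.24 CPM and 1.95 to 3.51 CPM. Monocyte and macrophage markers (2 of 8 higher) summed to 282 to 541 CPM and 470 to 853 CPM. The 2 were Ccr2 (median 73.9 and 260 CPM) and Ly6c2 (61.8 and 140 CPM), and the others on this list were not called. Mast cell and basophil markers (4 of 5 higher) summed to 63.6 to 122 CPM and 283 to 1708 CPM. Neutrophil markers (5 of 6 lower) summed to 106 to 2361 CPM and 74.5 to 349 CPM, erythroid markers (5 of 5 lower) to 31.9 to 116 CPM and 3.12 to 20.9 CPM, and megakaryocyte markers (4 of 4 tested lower) to 275 to 321 CPM and 90.5 to 252 CPM. Stromal and endothelial markers reached 736 CPM in BCR::ABL1+ replicate 2, against 169 to 344 CPM in the other 11 libraries. No listed marker was at 0 in all libraries, and the part of these cells in the results below was not tested. Here fewer cells of a type and less RNA per cell cannot be told apart.

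All 9 class I genes were lower in BCR::ABL1+ than in BCR::ABL1− and none was higher, beside 29% of all genes called lower. Their median log2 fold change was −0.83, against 0.07 for all genes tested, and 9.95% of all genes had a log2 fold change at or below −0.83. CPM values did not overlap between the groups for 6 of the 9 genes, beside the 20.6% of all genes given above. Summed over the 9 genes, the level was 4759 ± 296 CPM in BCR::ABL1−, compared with 3010 ± 468 CPM in BCR::ABL1+ (mean ± SD, n = 6 each), with no overlap, since the lowest BCR::ABL1− library was at 4485 CPM and the highest BCR::ABL1+ library at 3862 CPM. Nlrc5, Tap1, Tap2 and H2-K1 were at 47.8%, 49.8%, 50.5% and 52.4% of the BCR::ABL1− level, while H2-T23 was at 56.4%, Tapbp at 60.1%, B2m at 70.1%, H2-D1 at 76.1% and Erap1 at 81.7%.

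**Figure D1:**
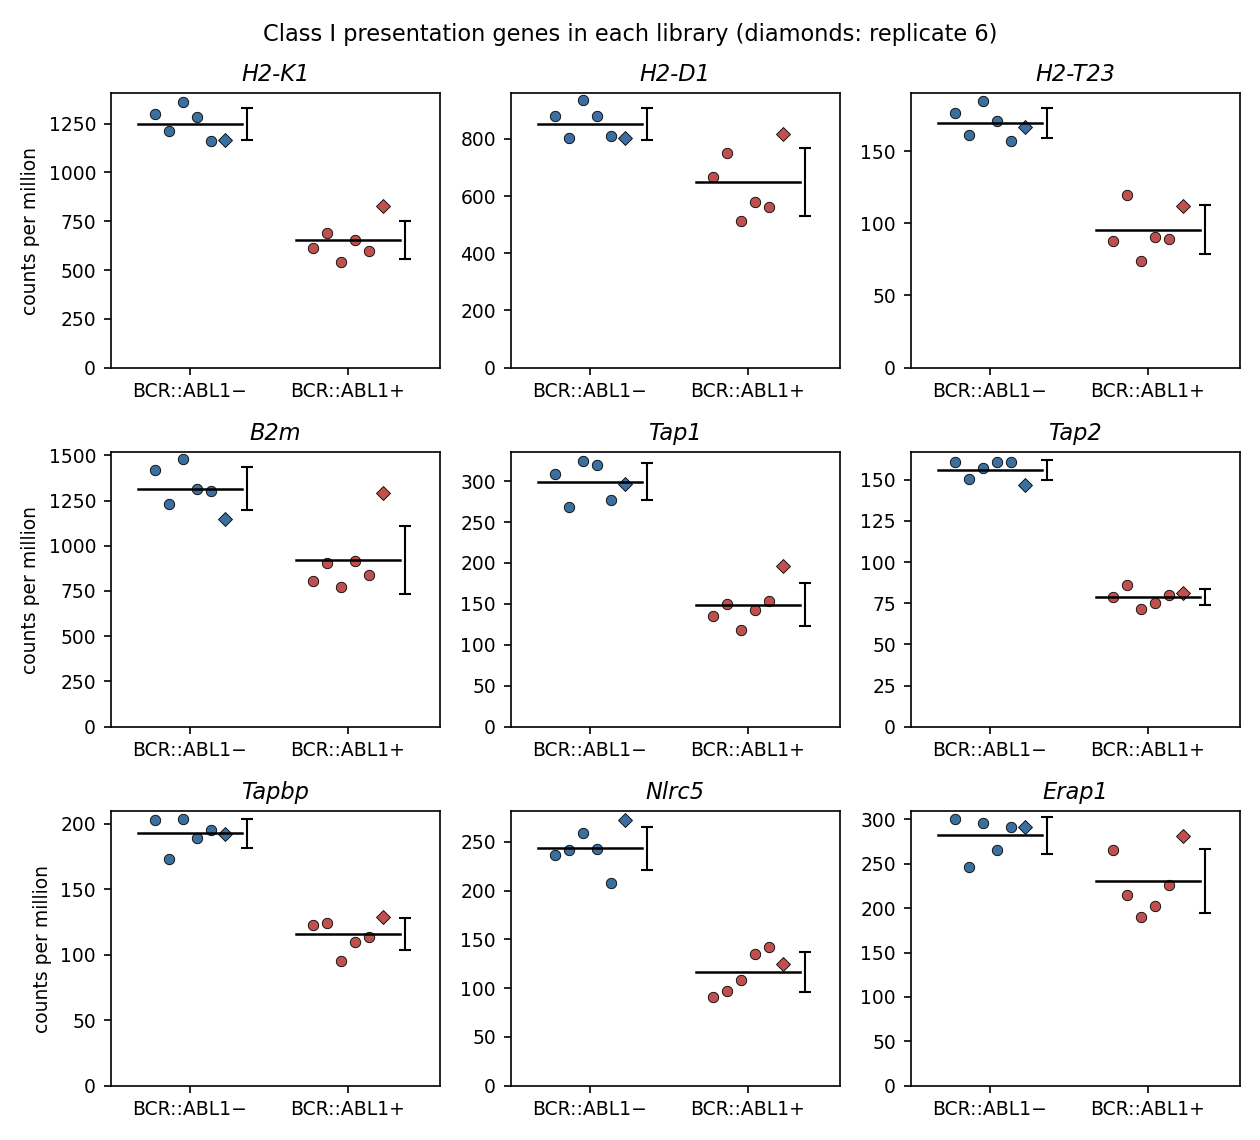
CPM of each of the 9 class I genes (y axis, from 0) in the 6 BCR::ABL1− and 6 BCR::ABL1+ libraries, with replicate 6 of each group as a diamond, the mean as a line and the SD as a bar. The groups are apart for H2-K1, H2-T23, Tap1, Tap2, Tapbp and Nlrc5, and BCR::ABL1+ replicate 6 lies within the BCR::ABL1− range for H2-D1, B2m and Erap1.

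Per kilobase of exon, B2m had the highest level of the 9 genes in both groups, at a median of 1522 CPM per kb in BCR::ABL1−, compared with 1014 CPM per kb in BCR::ABL1+. H2-K1 came next in BCR::ABL1−, with a level of 395 to 464 CPM per kb that lay above the 311 to 364 CPM per kb of H2-D1 in every library. In BCR::ABL1+ the level of H2-D1 (198 to 318 CPM per kb) and that of H2-K1 (184 to 282 CPM per kb) overlapped. The other 6 genes were lower, at medians of 28.5 to 58.4 CPM per kb in BCR::ABL1− and 13.7 to 32.6 CPM per kb in BCR::ABL1+, with Nlrc5 lowest in both groups. Among those 6, the neighbours H2-T23, Tap1 and Tapbp overlapped in BCR::ABL1−, as did Tap2 and Erap1, and in BCR::ABL1+ every neighbouring pair from Tapbp to Tap2 overlapped. Nlrc5 was still above 78.5% of the genes tested in BCR::ABL1+, and above 90.7% in BCR::ABL1−. The length used merges all annotated exons of a gene and can exceed that of its longest coding transcript. For Tap1 it was 5476 against 2953 bases, for Tapbp 3628 against 2898 and for H2-K1 2938 against 1619. The order and overlaps of genes given here depend on this choice and were not examined with transcript lengths.

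H2-K1 (ENSMUSG00000061232) and H2-D1 (ENSMUSG00000073411) encode the classical heavy chains, which hold the peptides read by most CD8+ T cells. The level of H2-K1 was 1161 CPM at the lowest, 1249 CPM at the median and 1363 CPM at the highest in BCR::ABL1−, and 541, 633 and 827 CPM in BCR::ABL1+. Every BCR::ABL1+ library was below every BCR::ABL1− library, and the log2 fold change was −0.93 ± 0.093 (SE, n = 6 per group, adjusted p 9.82e-07). The level of H2-D1 was 802, 846 and 938 CPM in BCR::ABL1−, compared with 511, 623 and 819 CPM in BCR::ABL1+. BCR::ABL1+ replicate 6 (819 CPM) was above the lowest BCR::ABL1− libraries, and the other 5 were at 511 to 750.1 CPM, below all of them. The log2 fold change of H2-D1 was −0.39 ± 0.11 (adjusted p 0.00491).

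H2-K1 fell by more than H2-D1. Within each library the log2 ratio of H2-K1 to H2-D1 reads was 0.52 to 0.60 in BCR::ABL1− and −0.12 to 0.17 in BCR::ABL1+, with no overlap. The difference of −0.53 gave an exact two-sided permutation p of 0.00216 (n = 6 per group), which is the smallest that this design can give, and an adjusted p of 0.00325 over 9 ratios. These ratios, like the other tests, were chosen with earlier results of these data known. A ratio within a library does not depend on how libraries are scaled against each other.

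H2-T23 (ENSMUSG00000067212) encodes Qa-1, a non-classical heavy chain recognised by the CD94/NKG2 receptors of NK cells. Its level was 157, 169 and 184 CPM (lowest, median, highest) in BCR::ABL1−, compared with 74.1, 90.0 and 120 CPM in BCR::ABL1+, with no overlap, and its log2 fold change was −0.83 ± 0.10 (adjusted p 6.53e-06). The log2 ratio of H2-T23 to H2-D1 within a library also differed, by −0.43 (exact permutation p 0.00216, adjusted 0.00325, n = 6 per group), and did not overlap between the groups. H2-T23 thus fell by more than H2-D1.

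Of 10 further heavy chain genes tested, 9 were lower in BCR::ABL1+ (beside 29% of all genes), none was higher and H2-M3 was not called. Their median log2 fold change was −0.83. H2-Q6 fell most among the better expressed, at −1.65 ± 0.16 (adjusted p 9.22e-07), followed by H2-Q4 at −1.40 ± 0.10 (adjusted p 9.05e-08) and H2-T10 at −1.37 ± 0.14 (adjusted p 1.13e-06). H2-Q4 was at a median of 188 CPM in BCR::ABL1−, compared with 70.4 CPM in BCR::ABL1+, and its groups did not overlap. H2-Q7 changed by −1.10 ± 0.23, H2-T22 by −0.56 ± 0.092 and H2-T24 by −0.56 ± 0.087 on the log2 scale. The class I-like Mr1, which presents vitamin metabolites, and Cd1d1, which presents lipids, were lower as well, at −0.46 ± 0.12 and −0.54 ± 0.071. H2-Q1, H2-Q2, H2-Q10, H2-T3 and H2-M2 did not pass the filter on low counts.

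Class I genes resemble each other, so reads can be shared. Of the 75-base windows of the longest coding transcript in GENCODE vM21, 1.55% of those of H2-K1, 6.90% of those of H2-D1 and 13.1% of those of H2-T23 occurred unchanged in transcripts of another gene, against none for B2m, Tap1, Tap2, Nlrc5 and Erap1 and 0.992% for Tapbp. The share was 17.9% for H2-Q6, 21.7% for H2-Q7, 23.3% for H2-T10, 26.1% for H2-T22, 19.4% for Cd1d1 and 30.9% for Cd1d2, and how the authors' counting treated such reads is not given in the sources used here. The values of these 6 genes are therefore uncertain, more so than those of H2-K1.

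B2m (ENSMUSG00000060802) encodes the light chain that every classical and most non-classical heavy chains need to leave the endoplasmic reticulum. Its level was 1148, 1309 and 1478 CPM in BCR::ABL1−, compared with 772, 872 and 1291 CPM in BCR::ABL1+. BCR::ABL1+ replicates 1 to 5 were at 772 to 918 CPM, below all BCR::ABL1− libraries, while replicate 6 (1291 CPM) was above the lowest of them. The log2 fold change was −0.51 ± 0.11 (adjusted p 0.00139), and −0.64 (adjusted p 7.14e-06) without BCR::ABL1+ replicate 6. Relative to H2-K1, B2m was higher in BCR::ABL1+: the log2 ratio of their reads was −0.02 to 0.16 in BCR::ABL1− and 0.39 to 0.64 in BCR::ABL1+ (difference 0.41, exact permutation p 0.00216, adjusted 0.00325, n = 6 per group). Relative to H2-D1 the difference was −0.12, within ranges that overlapped (exact permutation p 0.223, adjusted 0.251, n = 6 per group).

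**Figure D2:**
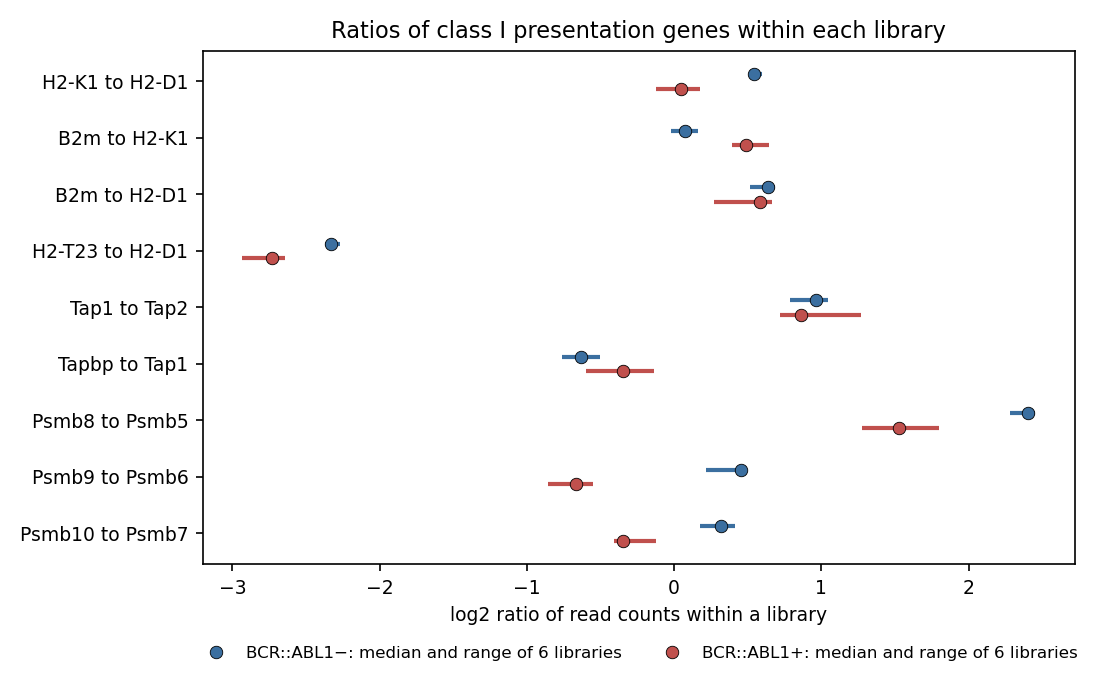
Log2 ratio of the read counts of gene pairs within a library (x axis), with the median (point) and range (line) of the 6 BCR::ABL1− libraries (blue) and 6 BCR::ABL1+ libraries (red). The ranges are apart for H2-K1 to H2-D1, B2m to H2-K1, H2-T23 to H2-D1 and the 3 pairs of proteasome subunits, and overlap for B2m to H2-D1, Tap1 to Tap2 and Tapbp to Tap1.

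The promoters of the heavy and light chain genes are shown because these genes were all lower in BCR::ABL1+, though not by the same amount. Factors described below are known to act at class I promoters, and their action in these cells was not measured. RefSeq promoters (GRCm38.p6, a build other than the one named for the counts) were matched by symbol for 7 of the 9 genes: H2-K1, H2-D1, H2-T23, Tap1 and Tapbp on chromosome 17, B2m on chromosome 2 and Erap1 on chromosome 13. The 200 bases before the annotated start are given 5′ to 3′ on the gene's own strand, from chr17:34000348-34000547 (−) for H2-K1, chr17:35262894-35263093 (+) for H2-D1, chr17:36032702-36032901 (−) for H2-T23 and chr2:122147487-122147686 (+) for B2m. Capitals mark every match, on either strand, to the interferon-stimulated response element (ISRE) core GAAANNGAA, the CRE half-site TGACG, the CCAAT box (CCAAT) and the κB consensus.
H2-K1: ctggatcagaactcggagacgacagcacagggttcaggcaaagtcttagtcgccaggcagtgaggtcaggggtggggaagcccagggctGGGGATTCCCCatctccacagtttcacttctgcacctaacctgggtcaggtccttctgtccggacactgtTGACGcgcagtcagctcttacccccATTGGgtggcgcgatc
H2-D1: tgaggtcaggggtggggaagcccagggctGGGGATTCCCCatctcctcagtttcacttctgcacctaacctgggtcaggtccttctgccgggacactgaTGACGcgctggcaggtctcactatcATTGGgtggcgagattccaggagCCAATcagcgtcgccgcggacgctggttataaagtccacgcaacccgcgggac
H2-T23: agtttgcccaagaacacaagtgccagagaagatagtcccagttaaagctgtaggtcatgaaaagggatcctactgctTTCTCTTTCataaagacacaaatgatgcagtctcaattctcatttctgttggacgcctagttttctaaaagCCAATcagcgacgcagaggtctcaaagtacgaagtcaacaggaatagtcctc
B2m: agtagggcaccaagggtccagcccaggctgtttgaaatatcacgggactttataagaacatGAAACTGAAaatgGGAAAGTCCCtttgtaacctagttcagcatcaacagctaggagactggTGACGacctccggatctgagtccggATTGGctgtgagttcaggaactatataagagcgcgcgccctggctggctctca

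H2-K1, H2-D1 and B2m each held a κB match, a CRE half-site and a CCAAT box in that order towards the start. In B2m the κB match lay at −126 to −117 from the start, the half-site at −78 to −74 and the CCAAT box (as its reverse complement) at −53 to −49, and an ISRE core at −139 to −131. The windows of H2-K1 and H2-D1, set 60 bases apart because their annotated starts differ, were identical at 176 of 240 bases (73.3%). Over the 300-base windows (250 bases before to 50 after the start), the CCAAT box was found in 6 of the 7 class I promoters and in 37.4% of 32851 promoters in the table. The CRE half-site was found in 4 (H2-K1, H2-D1, B2m and Tap1) against 20.8%, the ISRE core in 3 (B2m, H2-T23 and Erap1) against 8.56%, and the κB consensus in 3 (H2-K1, H2-D1 and B2m) against 8.46%. The ISRE core was searched only in the form given above, and any other form of the element is left in lower case. The lack of a match in H2-K1, H2-D1 or another promoter therefore does not show that it lacks an ISRE. The matches describe the reference sequence and were not measured as binding.

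Tap1 and Tap2 encode the partner chains of the peptide transporter. The level of Tap1 (ENSMUSG00000037321) was 269, 302 and 325 CPM in BCR::ABL1−, compared with 118, 146 and 196 CPM in BCR::ABL1+, and that of Tap2 (ENSMUSG00000024339) was 147, 159 and 161 CPM against 71.7, 79.5 and 86.0 CPM. Neither gene overlapped between the groups. The log2 fold changes were −1.01 ± 0.10 for Tap1 (adjusted p 1.17e-06) and −0.98 ± 0.055 for Tap2 (adjusted p 1.71e-08), and Tap2 had the smallest spread between libraries of all 9 genes, with a coefficient of variation of 3.86% in BCR::ABL1− libraries and 6.25% in BCR::ABL1+ libraries. The log2 ratio of Tap1 to Tap2 was 0.79 to 1.05 in BCR::ABL1− and 0.72 to 1.27 in BCR::ABL1+, and its difference of −0.03 was within the spread (exact permutation p 0.747, adjusted 0.747, n = 6 per group).

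Tapbp (ENSMUSG00000024308) encodes tapasin, which bridges the transporter and the heavy chain. Its level was 173, 193 and 204 CPM in BCR::ABL1−, compared with 94.8, 118 and 129 CPM in BCR::ABL1+, with no overlap and a log2 fold change of −0.73 ± 0.074 (adjusted p 1.17e-06). Tapbp fell by less than Tap1, with a difference of 0.28 in the log2 ratio within a library (exact permutation p 0.00433, adjusted 0.00557, n = 6 per group), although the ranges of the ratio overlapped.

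None of the general folding factors of the loading complex was called lower. Of 7 other genes of transport and loading tested, 4 were higher in BCR::ABL1+ (beside 30.6% of all genes) and none was lower (29% of all genes). The other 3 were not called (Canx, Uggt1 and Tapbpl), and the median log2 fold change of the 7 was 0.28. Calr, encoding calreticulin, was at 790, 1011 and 1055 CPM in BCR::ABL1−, compared with 1216, 1873 and 2286 CPM in BCR::ABL1+, with no overlap (log2 fold change 0.94 ± 0.13, adjusted p 2.97e-05). Pdia3, encoding ERp57, rose by 0.92 ± 0.12 (adjusted p 1.17e-05), Bcap31 by 0.72 ± 0.11 and Sec22b by 0.28 ± 0.066 on the log2 scale. Calreticulin and ERp57 also serve the folding of many other glycoproteins.

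Erap1 (ENSMUSG00000021583) encodes the aminopeptidase that trims peptides in the endoplasmic reticulum, and it showed the smallest change of the 9 genes. Its level was 247, 292 and 301 CPM in BCR::ABL1−, compared with 191, 221 and 282 CPM in BCR::ABL1+. BCR::ABL1+ replicates 1 (265 CPM) and 6 (282 CPM) lay within the BCR::ABL1− range, and the log2 fold change was −0.29 ± 0.095 (adjusted p 0.0154). Other trimming enzymes went both ways, with 3 of 8 lower, 2 higher and 3 not called and a median of −0.13. These counts are near the shares of all genes tested, of which 29% were lower and 30.6% higher. The cytosolic Nrdc fell by 0.50 ± 0.059 on the log2 scale (adjusted p 4.62e-06), and Lnpep and Npepps changed by −0.27 ± 0.10 and −0.23 ± 0.083. The leucine aminopeptidase Lap3 rose by 0.65 ± 0.11 (adjusted p 0.000151) and Blmh by 0.29 ± 0.085. The groups overlapped for Lnpep, Npepps and Blmh, but not for Nrdc and Lap3.

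Unlike the class I genes, none of the listed proteasome genes that supply the peptides was called lower. Of the immunoproteasome and activator genes, 2 of 5 were higher (Psme2, log2 fold change 0.86 ± 0.13, and Psmb8, 0.27 ± 0.10), none was lower, and Psmb9, Psmb10 and Psme1 were not called. All 3 standard catalytic subunits were higher: Psmb5 by 1.14 ± 0.13, Psmb6 by 0.89 ± 0.10 and Psmb7 by 0.83 ± 0.093. The log2 ratio of each inducible subunit to its standard counterpart was lower in BCR::ABL1+, by 0.85 for Psmb8 to Psmb5, 1.11 for Psmb9 to Psmb6 and 0.62 for Psmb10 to Psmb7, each with an exact permutation p of 0.00216 (adjusted 0.00325, n = 6 per group) and no overlap. Psmb9 starts 226 bases from Tap1 on the opposite strand in the RefSeq table, and its log2 fold change was −0.21 ± 0.11 (adjusted p 0.130), against −1.01 for Tap1. Their log2 ratio (Tap1 to Psmb9), chosen after the values were seen and given without a test, was 1.44 to 1.60 in BCR::ABL1− and 0.39 to 1.04 in BCR::ABL1+.

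**Figure D3:**
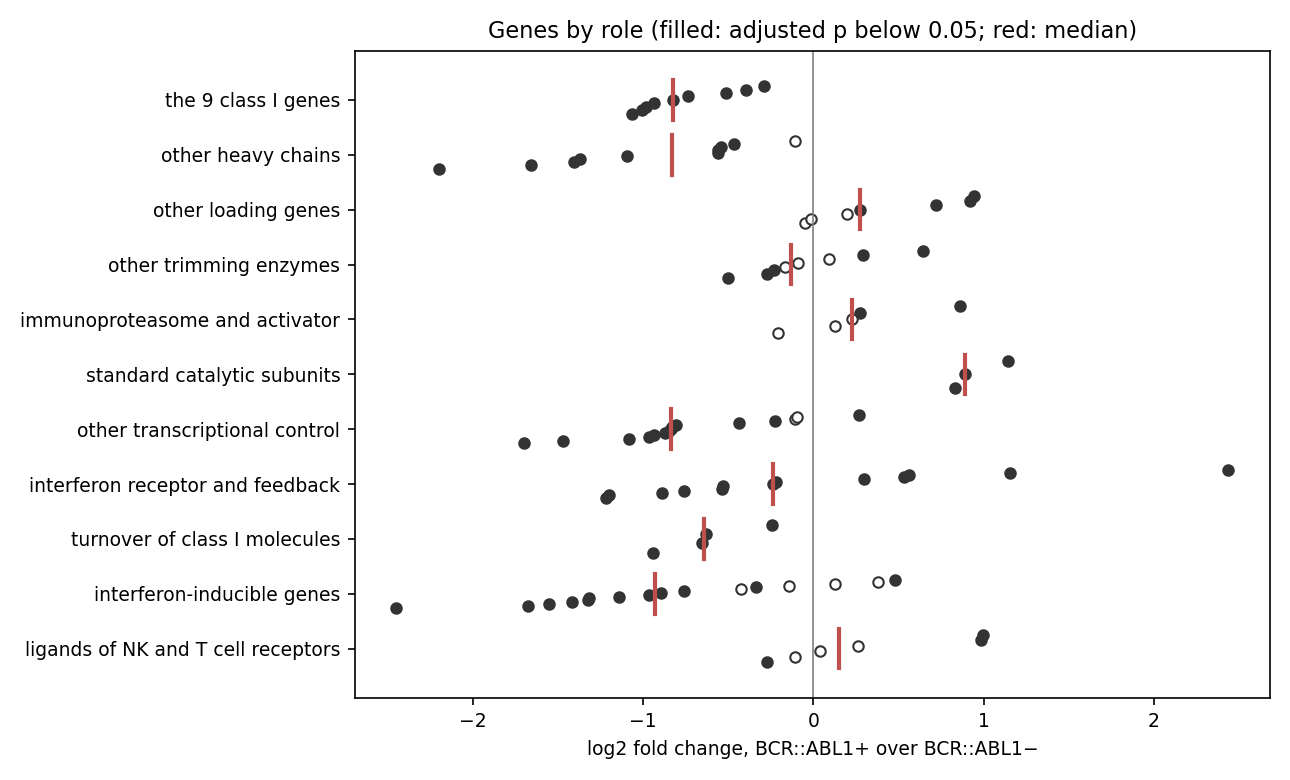
Log2 fold change (x axis, BCR::ABL1+ over BCR::ABL1−) of each tested gene by role, with the 9 class I genes in the top row and the other genes of each list below, filled where the adjusted p was below 0.05 and with the median of each row in red. The class I genes, the other heavy chains and the transcriptional control genes have medians near −0.83, while the loading genes and both proteasome rows have medians above 0.

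Nlrc5 (ENSMUSG00000074151), the class I transactivator, had the largest fall of the 9 genes. Its level was 208, 242 and 272 CPM in BCR::ABL1−, compared with 91.3, 117 and 142 CPM in BCR::ABL1+, with no overlap and a log2 fold change of −1.06 ± 0.11 (adjusted p 1.18e-06). Of the 15 other genes of transcriptional control, 12 were lower (beside 29% of all genes), 1 (Atf1) was higher and 2 (Nfyb and Creb1) were not called. Their median log2 fold change was −0.83. The 3 genes of the RFX complex that docks NLRC5 were all lower: Rfx5 by −0.87 ± 0.079 (adjusted p 4.55e-07), Rfxap by −0.85 ± 0.16 and Rfxank by −0.81 ± 0.16. Ciita, the class II counterpart of Nlrc5, changed by −1.70 ± 0.39 (adjusted p 0.00163), and Irf8, a factor of monocyte and dendritic cell fate, by −1.47 ± 0.27 (adjusted p 0.000259). Ciita overlapped between the groups, at 28.4 to 72.9 CPM and 6.90 to 37.6 CPM.

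Irf1 carries the interferon signal to class I promoters, and Rela is an NF-κB subunit. Irf1 was at 98.8, 108 and 124 CPM in BCR::ABL1−, compared with 45.7, 59.0 and 69.8 CPM in BCR::ABL1+ (log2 fold change −0.94 ± 0.097, adjusted p 1.43e-06), and its groups did not overlap. Rela changed by −0.96 ± 0.091 (adjusted p 5.99e-07).

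Receptor and feedback genes of interferon signalling split, with 8 of 13 lower, 5 higher and a median of −0.23, beside 29% and 30.6% of all genes. Stat2 (−1.22 ± 0.069), Irf9 (−1.20 ± 0.093), Tyk2 (−0.89 ± 0.071) and Jak2 (−0.76 ± 0.089), all parts of the signal from the receptors, were lower. Ifngr1, the ligand-binding chain of the interferon-γ receptor, was at 112, 128 and 143 CPM in BCR::ABL1−, compared with 183, 299 and 408 CPM in BCR::ABL1+, with no overlap (log2 fold change 1.15 ± 0.16, adjusted p 2.55e-05). Socs3, a feedback inhibitor of JAK-STAT signalling by cytokine receptors, lay between 4.53 and 8.82 CPM in BCR::ABL1− libraries and between 28.0 and 50.7 CPM in BCR::ABL1+ libraries (log2 fold change 2.44 ± 0.18, adjusted p 7.67e-08).

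Among 16 interferon-inducible genes listed for comparison, 11 were lower (beside 29% of all genes), 1 (Gbp3) was higher and 4 were not called (Ifi47, Isg15, Bst2 and Ly6a). Their median log2 fold change was −0.93. Mx1 changed by −2.45 ± 0.19, Irgm2 by −1.67 ± 0.14, Rsad2 by −1.55 ± 0.20, Irf7 by −1.42 ± 0.17, Ifit1 by −1.32 ± 0.16 and Igtp by −1.14 ± 0.19 on the log2 scale.

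Genes of class I turnover at the surface were lower in 4 of 4 cases tested, with a median of −0.64: Wwp2, a ubiquitin ligase, by −0.65 ± 0.051, Tmem127 by −0.63 ± 0.081, Susd6 by −0.24 ± 0.047 and Marchf9 by −0.94 ± 0.29. A further list held ligands of receptors on NK, T or other immune cells, of which 6 were tested. Pvr (0.98 ± 0.15, adjusted p 4.73e-05), a ligand of DNAM-1 and TIGIT, and H60b (0.99 ± 0.26, adjusted p 0.00474), a ligand of NKG2D, were higher. Ulbp1 (−0.27 ± 0.069, adjusted p 0.00368) was lower, with groups that overlapped. Cd274, Nectin2 and Cd47 were not called. Over all 10 lists, 87 genes other than the 9 were tested, of which 48 were lower, 20 higher and 19 not called. Of all 18438 genes tested, 29% were lower and 30.6% higher.

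Most of the 9 genes stood high or low in the same libraries of a group. BCR::ABL1+ replicate 3 was the lowest of its group for 8 of the 9 genes and replicate 6 the highest for 6, and in BCR::ABL1− replicate 3 was the highest for 6. With log2 CPM centred in each group, Pearson's r between pairs of the 9 genes had a median of 0.53 over the 6 BCR::ABL1− libraries and 0.72 over the 6 BCR::ABL1+ libraries, and 33 and 31 of 36 pairs were positive. The strongest pairs were H2-K1 with H2-D1 in BCR::ABL1− (0.957) and H2-K1 with B2m in BCR::ABL1+ (0.953). Against the mean profile of the other 8 genes over 12 libraries, r was 0.62 to 0.93 for each gene except Nlrc5, for which it was −0.005. The median r of all other genes compared with the mean profile of the 9 was 0.10. These correlations are descriptions across libraries that also differ in depth and cell content. The median coefficient of variation of the 9 genes was 6.54% in BCR::ABL1−, compared with 17.6% in BCR::ABL1+, close to the 7.70% and 16.1% over 13740 genes with a mean log2 CPM of at least 1.

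Of the 13731 other such genes, the 5 nearest to the mean profile were Prcp (r = 0.955), Leprotl1 (0.954), Seh1l (0.952), Mob1a (0.948) and the heavy chain gene H2-T22 (0.941), over 12 group-centred libraries. The profile leaves out the change between groups, and the log2 fold change of these genes was −0.02 ± 0.087 for Seh1l (adjusted p 0.846) and −0.03 ± 0.077 for Mob1a (adjusted p 0.777), against −0.21 ± 0.079 for Prcp (adjusted p 0.0299), −0.28 ± 0.091 for Leprotl1 (adjusted p 0.0148) and −0.56 ± 0.092 for H2-T22 (adjusted p 0.000111).

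Replicate 6 of each group was examined apart, since the library numbers in the deposited names formed separate runs for replicates 1 to 5 of each group and lay near each other only for replicates 6. Whether these numbers mark a processing batch is not given in the sources used here, and with 1 library a side the comparison has no test. Between these libraries the log2 ratio (BCR::ABL1+ over BCR::ABL1−) was negative for 7 of the 9 genes, with a median of −0.57 beside 0.004 for all genes tested, and 49.8% of all genes were lower. Nlrc5 (−1.13), Tap2 (−0.86), Tap1 (−0.60), H2-T23 (−0.57), Tapbp (−0.57) and H2-K1 (−0.50) were lower, Erap1 differed by −0.05, and H2-D1 (0.03) and B2m (0.17) were not lower. BCR::ABL1+ replicate 6 was also the library with the highest dendritic cell, B cell, T cell and monocyte and macrophage marker sums of its group, and the part of these in its class I level was not tested. Without replicate 6 of both groups all 9 genes were lower, with log2 fold changes from −0.34 (Erap1, adjusted p 0.00887) to −1.09 (Tap1, adjusted p 1.14e-06).

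**Figure D4:**
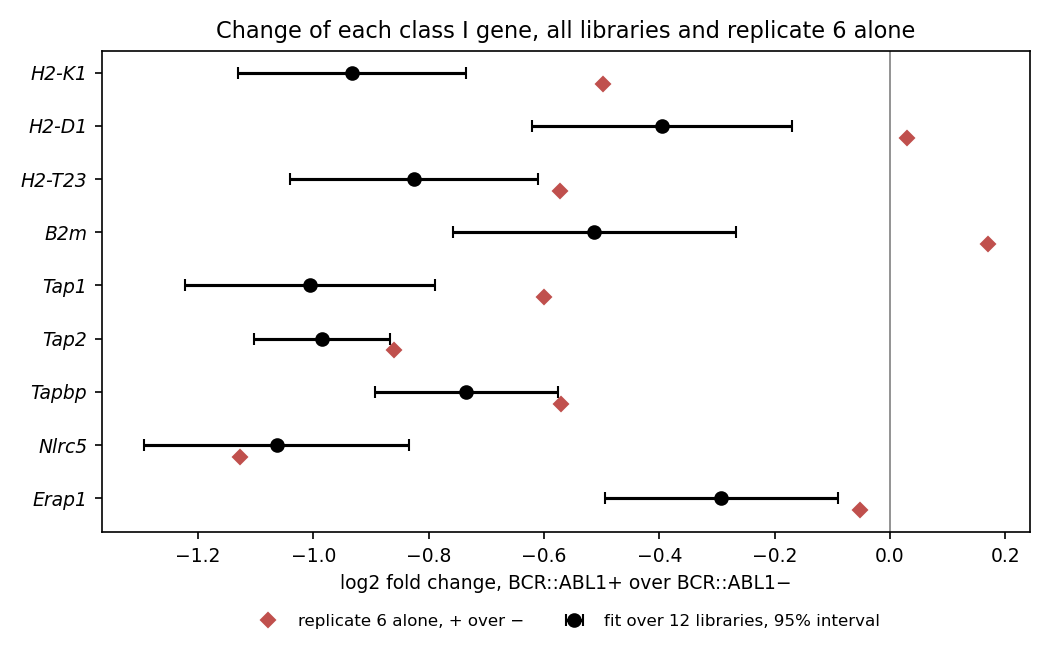
Log2 fold change of each class I gene (x axis, BCR::ABL1+ over BCR::ABL1−) from the fit over 12 libraries with its 95% interval (black), and the log2 ratio between replicate 6 of each group alone (red diamonds). All 9 intervals lie below 0, while the replicate 6 ratio is above 0 for H2-D1 and B2m and near 0 for Erap1.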

How the data were processed

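Bulk RNA-seq libraries of murine LSK cells (6 CTRL, 6 CML 2wk) were grouped by their labels. For each library the authors deposited read counts by Ensembl gene, without normalization. The submitters' processing notes name FastQC 0.11.9, fastp 0.23.2, STAR 2.7.10a, featureCounts 2.0.1, DESeq2 1.36.0 and a GRCm39 build, whereas the paper's methods name Trim Galore!, HISAT2 and hg38, so the aligner is uncertain. Strand setting, annotation release and the treatment of reads with several matches are not given in the sources used here. Human BCR::ABL1 was not counted. Of 56748 identifiers, 52073 were matched to a symbol and 0 entries named no gene.

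Counts were tested with edgeR 4.0.16 (TMM factors, filterByExpr, quasi-likelihood test, 18438 genes, R 4.3.3) with Benjamini-Hochberg adjustment over all genes. CPM per kb used merged exon lengths of GENCODE vM21. Ratios within a library (counts plus 0.5) were tested with a two-sided exact permutation test in Python 3.11.15. Libraries were compared pairwise and none was a duplicate. p-values measure the spread between libraries of recipients that shared 1 donor pool. PCR copies are not independent molecules, so depth limits cover counting error only. Prior to use, edgeR was tested on simulated data for this comparison. The 9 genes, the lists and the tests were chosen with earlier results of these data known. From the lists, at most 6 called genes each with a mean log2 CPM of at least 1 were named, by size of change, along with the 5 genes nearest to the profile of the 9. 1 gene of the lists that met this rule is not reported here. Some further genes were named after their values were seen (Rfxap, Rfxank, Mr1, Cd1d1, Atf1, Gbp3 and genes not called). Alternatives were DESeq2 1.42.0 and its size factors, upper-quartile factors, other filters, limma 3.58.1 voom with quality weights, a replicate block, other prior counts, and leaving out libraries. Same-numbered libraries did not deviate together (r −0.125 to 0.068).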

Additional observations from a re-analysis of the deposited data

Results flagged for a closer look

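Of 36 sets of 6 libraries examined (9 genes and 9 ratios in each group), 2 held a library whose gap to the next exceeded Dixon's limit of 0.625 of the range, where chance gives about 1.8. B2m in BCR::ABL1+ replicate 6 was at 1291 CPM, against 918 CPM for the next library, a gap of 0.720 of the range. The same library had the highest level of its group for 6 of the 9 class I genes and for the dendritic cell marker sum (63.5 CPM, against 11.9 to 27.5 CPM in the other 5), and the part of these cells in the B2m level was not tested. The log2 ratio of Psmb9 to Psmb6 in BCR::ABL1− replicate 5 was 0.22, against 0.45 for the next library, a gap of 0.970 of the range. It still lay above the highest BCR::ABL1+ library, at −0.55.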

How the results depend on the processing

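All 9 genes were lower and past the threshold in each of 20 alternatives (180 of 180 values). Adjusted p of Erap1 ranged from 0.00228 to 0.0385, the latter with upper-quartile factors, and its log2 fold change from −0.37 to −0.22. That of B2m ranged from −0.66, without replicate 6 of both groups, to −0.44. The replicate numbers did not pair the libraries, and with the replicate block 9 of 9 genes and 66 of 87 genes of the lists were called, against 68 in the fit without it. The directions of the list genes depended on the processing. In the main fit 20 were higher and 48 lower, against 25 and 43 with upper-quartile factors. Without a filter on low counts they were 16 and 49. The 7 ratios past the threshold stayed there, with adjusted p of 0.0402 in the paired exact permutation test of the replicate block. The difference in B2m to H2-D1, not called, was −0.12, and ran from −0.15 to −0.07 when 1 library was left out, the latter without BCR::ABL1+ replicate 1 or 2. The difference in Tap1 to Tap2, not called, ran from −0.11 to 0.0043 when 1 library was left out, and its sign turned without BCR::ABL1+ replicate 3. Labelled sex and TET followed the groups, as did library numbers except for replicates 6, and the fit could not separate them from BCR::ABL1.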
